A study of Mus musculus with 24 samples.

Results

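The proteins that dock, prime and fuse synaptic vesicles are encoded by genes that sensory neurons express from the embryo onward, and 43 of them were followed here across mouse lumbar dorsal root ganglia, the clusters of sensory neuron cell bodies beside the spinal cord. They were chosen by gene symbol and not by a cut on their values, though earlier results of these data were known. All 43 were found among the 20782 genes of the table. By role they comprised 6 SNARE and SNARE-recycling genes, 11 calcium sensors and complexins, 7 active zone and priming genes, 5 genes of the Rab3 group, 6 vesicle membrane proteins and synapsins, 3 endocytosis genes, 2 synucleins and 3 dense-core granule proteins. RNA was sequenced in 24 libraries, 3 for each of 8 groups. Embryonic lumbar ganglia were collected at E12.5 and at E17.5. L4-5 ganglia of adults that had been conditioned, meaning that a peripheral lesion had been made beforehand, stood against those of sham-operated adults. The other 4 groups were adult lumbar neurons, dissociated and grown at low density on laminin, taken 6, 12, 24 and 36 h after plating, in Neurobasal-A medium with B-27. No strain, sex or transgene is named for any group. How long after the lesion the ganglia were taken is not stated. The series title concerns a calcium channel subunit and axon regeneration in the adult. Its protocol text names cell sorting for every library, and whether the embryonic and operated ganglia were sorted is not stated.

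Neurotransmitter leaves a neuron when a vesicle fuses with the plasma membrane. Vesicle SNAREs (synaptobrevins, here Vamp1 and Vamp2) zip together with plasma membrane SNAREs (Snap25 and syntaxin, here Stx1a), synaptotagmins sense calcium, complexins hold and help the SNARE complex, and scaffold proteins of the active zone keep vesicles beside calcium channels. Sensory neurons of the ganglion make these proteins in the cell body and send them along the axon to terminals in the spinal cord, and they also release neuropeptides from dense-core granules. Values below are normalized read counts, listed in the order of replicates 1, 2 and 3, and each change is given as a log2 difference with its SE, after adding 1 to every value, so that changes of scarce genes come out too small. A gene is said to have risen or fallen where limma, a linear model fitted across all genes, gave an adjusted p under 0.05. Where another processing of the same values changed the call of a gene between the embryonic ages, from E17.5 to sham, after lesion, at 6 h or over the culture course, the change and adjusted p under it follow; neuron scaling sets each library to its 10 general neuron markers, and plain eBayes is limma without its trend and robust options. The labels do not tie the libraries of a group to separate animals or cultures, so p-values measure the spread between these libraries, which may be technical.

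Recovered depth ran from 3103838 to 25732182 reads per library, and the shallowest were replicate 2 at E17.5, replicate 1 at 12 h and replicate 3 at 6 h. All 10 general neuron markers, among them Tubb3, Elavl3 and Prph, were above 0 in every group. Numbers given with the sample titles run from 84 to 87 at E12.5 and from 336 to 350 for E17.5 and the cultures, and for the operated ganglia they are 69, 70, 74, 75, 123 and 124. What they stand for is not stated, and a gap in these numbers cannot be told apart from age in the embryonic comparison, from age and surgery between E17.5 and sham, or from preparation between sham and culture. Replicates 3 of sham and lesion carried the numbers 123 and 124.

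Nearly the whole set was higher in late than in early embryonic ganglia. Of the 43 genes, 40 rose from E12.5 to E17.5, with a median log2 change of 2.42, and the change of all 14550 tested genes had a median of -0.05. Among all tested genes 31.1% were called higher and 31.9% lower. The largest rises were those of Cplx1 (a complexin), Scg2 (a granule protein), Sv2b (a vesicle membrane glycoprotein) and Rph3a (a Rab3 effector), by 4.60 ± 0.17 (adjusted p = 3.8e-07), 4.36 ± 0.14 (adjusted p = 2.5e-07), 4.00 ± 0.13 (adjusted p = 2.4e-07) and 3.99 ± 0.17 (adjusted p = 7.0e-07). Genes not called were Doc2a at 0.20 ± 0.32 (adjusted p = 0.603), Unc13b at 0.44 ± 0.22 (adjusted p = 0.106) and Bin1 at 0.24 ± 0.20 (adjusted p = 0.334). The number called lower was 0 by limma, 0 at an unadjusted p of 0.05, and 0 by edgeR and DESeq2 on recovered reads. General neuron markers moved with the set: 7 of 10 rose and 1 fell, with a median of 0.79, with a summed level of 33079.5-56012 at E12.5 against 66606-80938 at E17.5. Fewer cells of a type and less RNA per cell cannot be told apart in these bulk libraries. With each library scaled to those markers, which moved the median of all genes by -0.96, 35 members were called higher and 2 lower, and the median member change was 1.46. Schwann cell markers rose in 7 of 9 cases, from sums of 1939-2999 to 11795-13765, and fibroblast markers in 4 of 6 (1 fell), from 7816-17341 to 30943-39603. Dividing cell markers fell in 5 of 5 cases, with summed levels of 17800-19052 at E12.5 and 2523-3598 at E17.5, and 6 of 8 markers of muscle and spinal cord neurons fell, from 803-1429 to 183-675 in sum, with Mnx1 at 0 in all E17.5 libraries. Their part in the result was not tested.

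From late embryo to adult more of the set rose than fell. Between E17.5 and sham ganglia 23 of the 43 genes rose and 9 fell, where 28.9% of all 14652 tested genes were called higher and 31.1% lower. Rises took in 5 of 6 SNARE genes, both synucleins, all 3 granule genes and all 3 endocytosis genes. In the active zone class 3 of 7 fell (Erc2, Rims1 and Unc13b) and the other 4 were not called, with changes from -0.32 to -0.01. Of the 11 calcium sensors and complexins 4 rose and 3 fell, of the 5 genes of the Rab3 group 2 rose and 1 fell, and of the 6 vesicle membrane proteins and synapsins 4 rose and 1 fell. Classes were not tested against each other. Snap25 (plasma membrane SNARE) and Vamp1 (vesicle SNARE) rose by 2.69 ± 0.13 (adjusted p = 3.9e-07) and 3.09 ± 0.09 (adjusted p = 7.2e-08), while Doc2b and Doc2a, which encode soluble calcium-binding proteins with synaptotagmin-like domains, fell by 2.60 ± 0.24 (adjusted p = 1.9e-05) and 2.50 ± 0.33 (adjusted p = 1.6e-04). The split was 20 higher and 14 lower with every library brought to the same total, which moved the median of all genes by -0.22, and 20 and 10 when scaled to neuron markers, which moved it by -0.13. Of 10 neuron markers, 2 rose and 2 fell, and their sums went from 66606-80938 to 109895-120786. Schwann cell markers rose in 8 of 9 cases, with sums of 11795-13765 at E17.5 and 70844-89100 after sham surgery, and satellite glia markers in 4 of 6, from 7813-9894 to 18766-19730. Fibroblast markers fell in 4 of 6 cases (1 rose), from 30943-39603 to 7800.0-10125, endothelial markers in 4 of 6, from 3280-3700.1 to 1162-1323, red cell markers in 3 of 5, from 5616-11227 to 1090.0-1271, and dividing cell markers in 5 of 5, from 2523-3598 to 186-292. Their part in the result was not tested.

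After peripheral lesion more of the set fell than rose. Against sham, 19 genes fell and 9 rose, which is 44.2% and 20.9% of the 43, and of all 14556 tested genes 20.2% were called lower and 20.9% higher. The share that rose therefore equalled the background, and the share that fell was above it. Falls included all 3 granule genes, 4 of 5 genes of the Rab3 group and 3 of 6 SNARE genes. Scg2, Vamp1, Sv2b and Rab3b fell most, by 0.94 ± 0.08 (adjusted p = 2.1e-06), 0.94 ± 0.08 (adjusted p = 2.3e-06), 0.90 ± 0.07 (adjusted p = 1.2e-06) and 0.80 ± 0.13 (adjusted p = 4.2e-04). The 9 genes that rose were Doc2b, Stx1a, Vamp2, Syn1, Bsn, Erc2, Syt4, Sncb and Sv2c, with changes from 0.25 to 1.70. Neuron markers gave 4 rises and 5 falls among 10, and their sums overlapped, at 109895-120786 after sham surgery and 118920-139363 after lesion. Scaled to these markers, 11 members were called higher and 15 lower. With 1 fit over all 24 libraries, which takes the spread from every group, 5 were called higher and 10 lower. Macrophage markers rose in 5 of 6 cases, from sums of 890.1-981 to 1942-3089.9, and fibroblast markers in 6 of 6, from 7800.0-10125 to 10243-12378. Their part in the result was not tested.

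**Figure D1:**
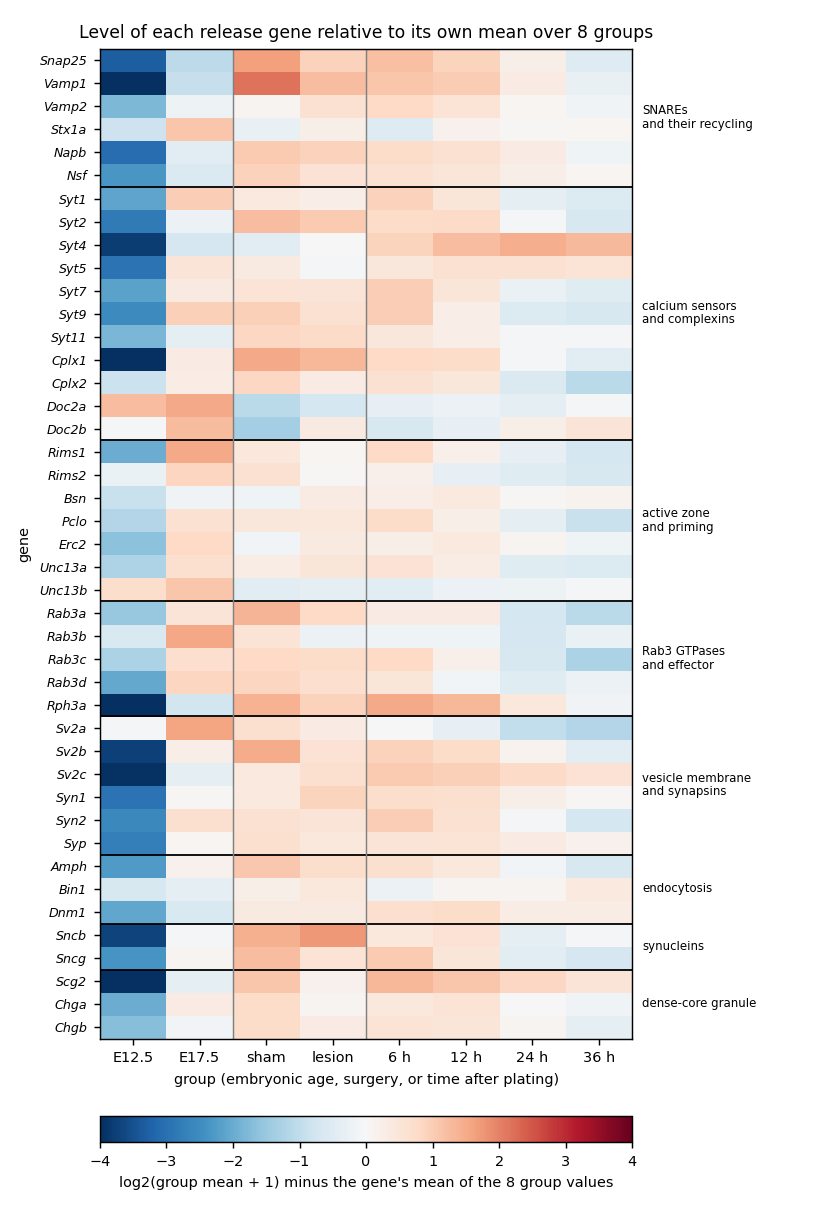
Mean level of each of the 43 genes (rows, by role) in the 8 groups (columns), as log2(group mean + 1) minus the gene's own mean of the 8 values. Red is higher and blue lower; the column of E12.5 is the lowest for 35 genes, and no gene has its highest mean at E12.5.

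In culture the first difference was mixed and the later one was mainly downward. At 6 h, 12 genes stood higher and 17 lower than in sham ganglia, or 27.9% and 39.5% of the members, where 27.6% of all 14566 tested genes were called higher and 30.7% lower. Syt4, a synaptotagmin of large vesicles, rose by 1.29 ± 0.11 (adjusted p = 1.5e-07), and Vamp1 and Rab3a fell by 1.05 ± 0.10 (adjusted p = 5.4e-07) and 1.05 ± 0.11 (adjusted p = 1.7e-06). The split turned with the scaling: relative to neuron markers 24 members were called higher and 3 lower, with the median of all genes moved by 0.51. Summed neuron markers were at 56645-62458 at 6 h against 109895-120786 after sham surgery, and 5 of 10 fell and 1 rose. Schwann cell markers fell in 7 of 9 cases (from 70844-89100 to 22130-30509 in sum), fibroblast markers in 6 of 6 (from 7800.0-10125 to 2211-2715) and macrophage markers in 4 of 5 tested (from 890.1-981 to 130.5-219). Satellite glia markers fell in 6 of 6 cases, from sums of 18766-19730 to 9380.2-11904. Endothelial markers went the other way and rose in 4 of 6, from 1162-1323 to 2429-3176. Their part in the result was not tested. Without sham replicate 2, 7 members were called higher.

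Between 6 and 36 h in culture 32 genes fell and 4 rose, with a median of -0.90, and 25.3% of all 15006 tested genes were called lower and 25.3% higher (median 0.02). Rab3c, a vesicle GTPase, fell most, by 2.05 ± 0.14 (adjusted p = 1.9e-08), followed by Snap25 by 1.71 ± 0.17 (adjusted p = 7.3e-07) and Syn2, a synapsin, by 1.71 ± 0.14 (adjusted p = 1.0e-07). Rises were seen for Doc2b at 1.13 ± 0.36 (adjusted p = 0.0172), Bin1 at 0.63 ± 0.12 (adjusted p = 5.0e-04), Stx1a at 0.58 ± 0.19 (adjusted p = 0.0194) and Unc13b at 0.36 ± 0.14 (adjusted p = 0.0486). Without replicate 3 at 6 h or without replicate 1 at 36 h, 2 were called higher. Scaled to neuron markers 8 were called higher and 21 lower, with the median of all genes moved by 0.60, and with the same total in each library (a move of 0.19) 5 and 29. Of 10 neuron markers 5 fell and 1 rose, with sums of 56645-62458 at 6 h and 45003-52823 at 36 h. Endothelial markers rose in 6 of 6 cases, from sums of 2429-3176 to 4201-5675, fibroblast markers in 3 of 6, from 2211-2715 to 3524-3816, and macrophage markers in 3 of 5 tested, from 130.5-219 to 301-323. Of 6 satellite glia markers 3 rose and 2 fell, and their sums went from 9380.2-11904 to 13973-17281. Their part in the result was not tested.

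The fall in culture was uneven over the steps. The median member change was -0.13 from 6 to 12 h, -0.46 from 12 to 24 h and -0.19 from 24 to 36 h. With neuron scaling it was 0.17, -0.12 and -0.23. From 6 to 12 h 8 members fell and 1 rose (Stx1a), against 4.72% and 5.86% of all tested genes. The Stx1a call was lost without replicate 1 or 3 at 6 h, replicate 2 or 3 at 12 h, replicate 1 or 2 at 24 h or replicate 3 at 36 h (adjusted p from 0.0536 to 0.175) and with no filter (0.66, adjusted p = 0.0674), TMM (0.64, adjusted p = 0.0518) and plain eBayes (0.66, adjusted p = 0.0899). From 12 to 24 h 15 fell, with 6.74% of all genes called lower, and 0 rose by limma, by edgeR, by DESeq2 or at an unadjusted p of 0.05, with 4.82% of all genes called higher. From 24 to 36 h 4 fell (Snap25, Pclo, Rab3c and Syn2), against 1.55%, and 0 rose by limma, edgeR and DESeq2 (1 at an unadjusted p of 0.05), against 1.11%. An F test over the 4 times called 34 of 43, where it called 45.7% of all genes. The shallow replicate 1 at 12 h weighed on the steps: without it 27 members fell from 12 to 24 h and 11 from 24 to 36 h. From 6 to 12 h the fallen numbered 5 without replicate 1 at 6 h, 4 without replicate 3 at 6 h and 3 without replicate 2 at 12 h. From 24 to 36 h none were called without replicate 2 or 3 at 24 h or without replicate 1 or 2 at 36 h, and 1 without replicate 3 at 36 h. Relative to neuron markers the splits of higher and lower calls became 6 and 1, 3 and 8, and 0 and 8 for the 3 steps in order, with the median of all genes moved by 0.30 and 0.35 in the earlier steps.

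**Figure D2:**
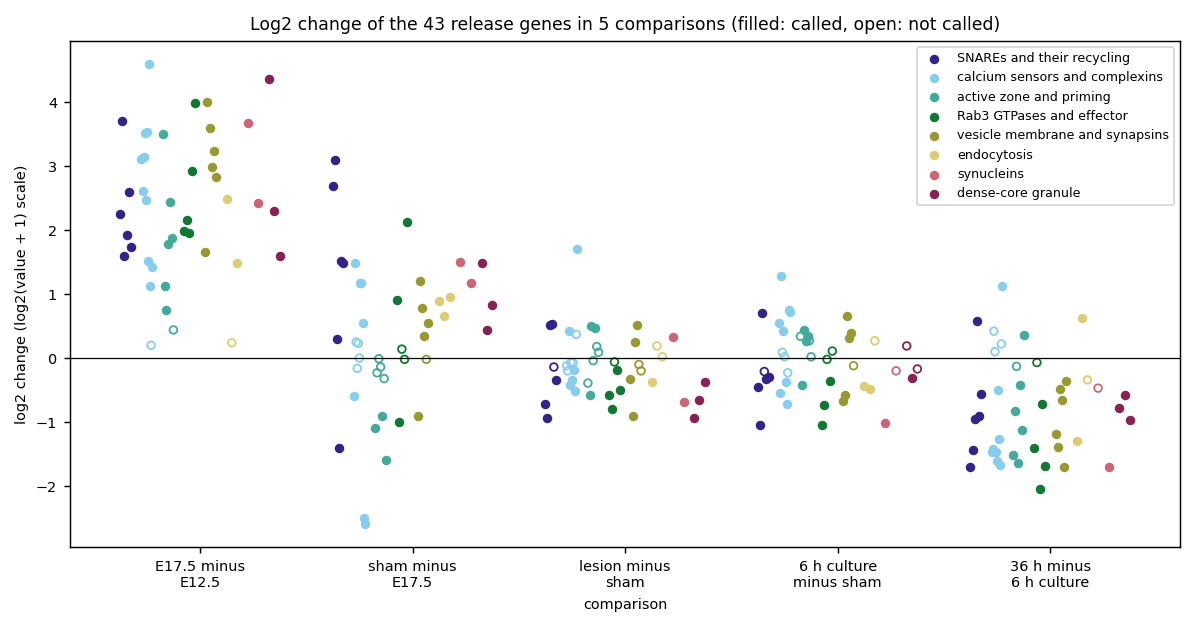
Log2 change of each of the 43 genes (points, coloured by role) in 5 comparisons, filled where limma called the gene and open where it did not. The embryonic column lies at or above 0 for every gene, and the column for 36 h against 6 h lies mostly below it, with 32 of 43 called lower. The comparisons with sham share its libraries, as do those with E17.5 and with 6 h.

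Summed over the 43 genes, the set took 0.288% ± 0.0395 of all reads at E12.5, 1.22% ± 0.0402 at E17.5, 1.94% ± 0.0257 after sham surgery and 1.65% ± 0.0723 after lesion. In culture the share went from 1.77% ± 0.016 at 6 h to 1.67% ± 0.143, 1.38% ± 0.0832 and 1.19% ± 0.0643 at 12, 24 and 36 h (mean ± SD of 3 libraries each). In normalized counts the sums were 28900.3 ± 4410.0 at E12.5, 131137 ± 2230.0 at E17.5, 242468 ± 2870.0 after sham surgery and 204101 ± 11200.0 after lesion, and 224958 ± 3620.0 at 6 h and 132458 ± 9000.0 at 36 h. The sham and lesion sums did not overlap. At 36 h the lowest and highest library sums, 126488 and 142806, bracketed the E17.5 sums of 128683 and 133036. Such sums give most weight to genes with high counts, and every 36 h library held more Syt4 than any E17.5 library. Overlapping sums therefore do not mean that single genes were at their E17.5 levels.

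**Figure D3:**
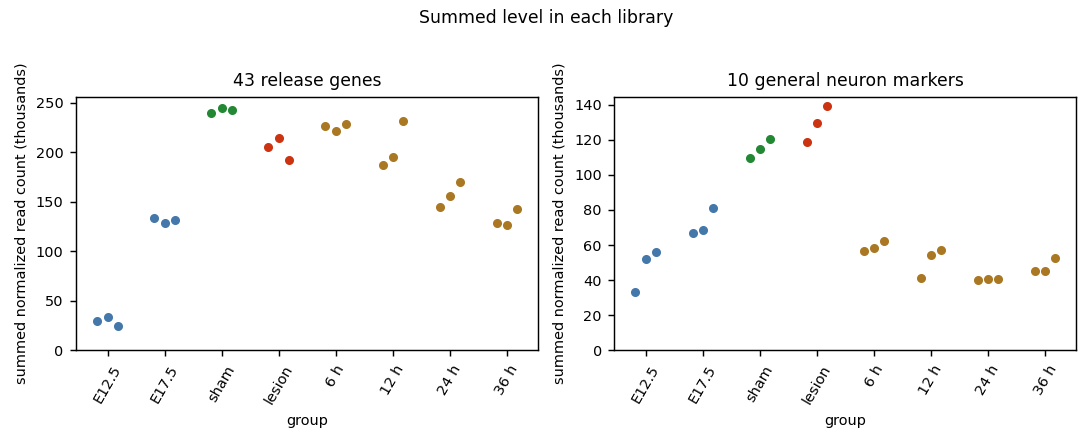
Summed normalized read count (axes scaled as marked) of the 43 release genes (left) and of 10 general neuron markers (right), with a point for each library; libraries are in replicate order on the left and from lowest to highest on the right. The release genes lie between 24371 and 33170.3 at E12.5 and between 239384 and 245049 after sham surgery. The summed neuron markers fall between sham and 6 h, where the release genes differ less. Tubb3 weighs most in that fall, with means of 64085 after sham surgery and 21332 at 6 h. Elavl4, Uchl1, Isl1 and Prph also fell, Elavl2, Elavl3, Rbfox3 and Map2 were not called, and Pou4f1 rose.

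The SNAREs form the fusion complex itself, and NSF with its adaptors pulls spent complexes apart for reuse. Snap25, which contributes a pair of helices to the complex, had the highest level per kilobase of exon in this class. It stood at 835, 1072 and 828 at E12.5, 4124, 5284 and 3699.6 at E17.5, 26275, 28354 and 29069 after sham surgery, and 17753, 19780.5 and 13993 after lesion. Cultures held 19488, 17814 and 24425 at 6 h, 16419, 14244 and 18837 at 12 h, 8202, 10409.7 and 12829 at 24 h, and 5530.2, 6277 and 6917 at 36 h. E12.5 libraries were the lowest of all and sham libraries the highest, lesion lay below sham without overlap, and all 36 h libraries lay below all 6 h libraries. The rises to E17.5 and to sham were 2.25 ± 0.17 (adjusted p = 7.9e-06) and 2.69 ± 0.13 (adjusted p = 3.9e-07), the falls after lesion and over the culture course were 0.71 ± 0.11 (adjusted p = 3.4e-04) and 1.71 ± 0.17 (adjusted p = 7.3e-07), and the fall at 6 h against sham was 0.45 ± 0.11 (adjusted p = 0.00278). That last call was not kept with neuron scaling (0.06, adjusted p = 0.618).

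Vamp1 and Vamp2 are alternative vesicle SNAREs, Vamp1 being the form of large sensory and motor neurons and Vamp2 the general brain form. For Vamp1 the counts were 134, 144 and 153 at E12.5, 1793, 1834 and 1991 at E17.5, 15254, 16856 and 15711 after sham surgery, and 8356, 9245 and 7392 after lesion. Cultured neurons had 6781, 8289.5 and 8135 at 6 h, 4824, 7666 and 9144 at 12 h, 3547, 5173 and 4649 at 24 h, and 2253, 3299.7 and 3088 at 36 h of Vamp1. Sham libraries stood above every other library, and E12.5 libraries below. Vamp1 rose by 3.70 ± 0.12 (adjusted p = 2.6e-07) to E17.5 and by 3.09 ± 0.09 (adjusted p = 7.2e-08) to sham, then fell by 0.94 ± 0.08 (adjusted p = 2.3e-06) after lesion and by 1.05 ± 0.10 (adjusted p = 5.4e-07) at 6 h, and by 1.44 ± 0.21 (adjusted p = 4.4e-05) between 6 and 36 h. Vamp2 was at 1272, 1641 and 1412 at E12.5, 4574, 4367 and 4104 at E17.5, 5168, 4907 and 6031 after sham surgery, and 7559, 8899 and 6562 after lesion. In culture Vamp2 read 9914, 8326 and 7937 at 6 h, 6534, 6786 and 8557 at 12 h, 5460.0, 5212 and 5259 at 24 h, and 4796, 4474 and 4211 at 36 h. Here lesion lay above sham without overlap and the 6 h cultures above sham as well, the reverse of Vamp1, and 36 h lay below 6 h. Its changes were 1.60 ± 0.13 (adjusted p = 1.2e-05) to E17.5, 0.51 ± 0.11 (adjusted p = 0.00315) after lesion, 0.70 ± 0.11 (adjusted p = 7.8e-05) at 6 h against sham and -0.95 ± 0.12 (adjusted p = 1.3e-05) over the culture course. From E17.5 to sham Vamp2 changed by 0.30 ± 0.10 (adjusted p = 0.0317), a call that was lost without replicate 3 at E17.5 or sham replicate 1 or 3 (adjusted p from 0.0707 to 0.147). It was also lost with the same total in each library (0.08, adjusted p = 0.518), neuron scaling (0.17, adjusted p = 0.301) and plain eBayes (0.30, adjusted p = 0.0774).

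Per kilobase of exon, Vamp1 made up 3.62% ± 0.388 of the Vamp1 and Vamp2 level at E12.5, 13.9% ± 1.32 at E17.5 and 52.7% ± 3.45 after sham surgery. The share was 29.0% ± 0.868 after lesion, 25.1% ± 4.08 at 6 h and 19.4% ± 3.83 at 36 h. The annotated exons cover 10167 bases for Vamp1 and 3809 for Vamp2, and the size of each share depends on these lengths. Vamp1 per Vamp2 was 1.11, 1.29 and 0.976 in the sham libraries and 0.414, 0.389 and 0.422 after lesion, which do not overlap. For any such ratio an exact two-sided permutation test of 3 against 3 libraries cannot go below p = 0.10, so ratios are given with their spread only.

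Nsf, the ATPase that takes SNARE complexes apart, was called in the same directions as Snap25 and Vamp1. Its counts were 674, 685 and 654 at E12.5, 2348, 2289 and 2104 at E17.5, 5841, 6630.5 and 6466 after sham surgery, and 4958, 5138 and 4791 after lesion. Culture values for Nsf were 5058, 5352 and 4972 at 6 h, 4177, 4765 and 5202 at 12 h, 3429, 4036 and 4359 at 24 h, and 2979, 3470.3 and 4083 at 36 h. Lesion lay below sham and 36 h below 6 h, each without overlap. Nsf rose by 1.74 ± 0.11 (adjusted p = 3.2e-06) and 1.49 ± 0.09 (adjusted p = 1.8e-06) in the embryonic and E17.5 to sham comparisons and fell by 0.35 ± 0.07 (adjusted p = 0.00155) after lesion and 0.56 ± 0.13 (adjusted p = 0.00268) over the culture course, the last not kept with neuron scaling (0.05, adjusted p = 0.748). Its fall at 6 h, 0.30 ± 0.09 (adjusted p = 0.0132), was lost without sham replicate 2 or 3 (adjusted p from 0.0605 to 0.0862) and with neuron scaling (0.22, adjusted p = 0.0745). Napb, the neuronal adaptor of NSF, rose by 2.59 ± 0.15 (adjusted p = 2.4e-06) and 1.52 ± 0.10 (adjusted p = 1.8e-06) and was not called after lesion (-0.14 ± 0.07). Its fall at 6 h, 0.33 ± 0.10 (adjusted p = 0.0107), was lost with neuron scaling (0.19, adjusted p = 0.108) and plain eBayes (-0.33, adjusted p = 0.0527). Stx1a, the syntaxin of the plasma membrane, peaked at E17.5, with 346 ± 38.4 at E12.5, 1328 ± 244 at E17.5 and 494 ± 29.9 after sham surgery, a fall of 1.41 ± 0.14 (adjusted p = 3.1e-05) from E17.5. It rose after lesion to 715 ± 52.2, by 0.53 ± 0.08 (adjusted p = 2.7e-04), and in culture from 432 ± 76.6 at 6 h to 640.1 ± 34.2 at 36 h, by 0.58 ± 0.19 (adjusted p = 0.0194). The culture call was lost without replicate 3 at 6 h or replicate 1 at 36 h (adjusted p from 0.056 to 0.101).

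**Figure D4:**
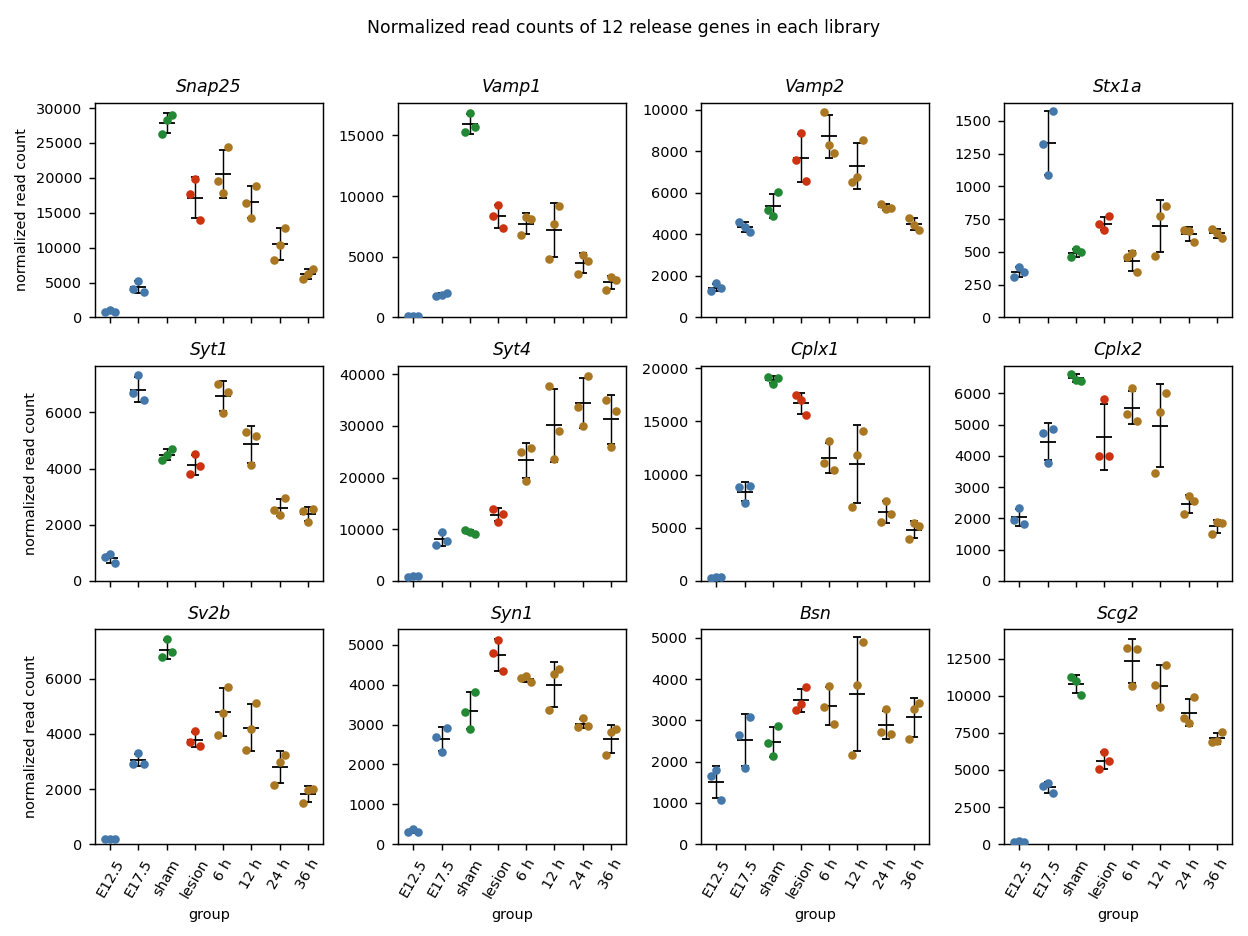
Normalized read count (linear axis from 0) of 12 release genes in each of the 24 libraries (points in replicate order), with mean and SD of each group as black marks. Snap25, Vamp1, Sv2b and Scg2 lie lower after lesion (red) than after sham surgery (green), and Vamp2, Stx1a, Syt4, Syn1 and Bsn higher.

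Synaptotagmins are vesicle proteins that link calcium entry to fusion; Syt1, Syt2 and Syt9 are the fast sensors, Syt7 a slower and more sensitive form, and Syt4 and Syt11 bind calcium poorly or not at all. Syt4 had the highest level per kilobase in this class and a higher mean in every culture group than in any ganglion group. It read 795, 1025 and 888 at E12.5, 6945, 9417 and 7644 at E17.5, 9877, 9360.2 and 9153 after sham surgery, and 13942, 11442 and 12987 after lesion. Cultures gave 24912, 19345 and 25634 at 6 h, 37693, 23586 and 28952 at 12 h, 33732, 29944 and 39652 at 24 h, and 35064, 25839 and 32854 at 36 h. Every culture library lay above every ganglion library, and lesion lay above sham without overlap. Syt4 rose by 3.14 ± 0.15 (adjusted p = 1.1e-06) to E17.5, by 0.43 ± 0.08 (adjusted p = 7.2e-04) after lesion and by 1.29 ± 0.11 (adjusted p = 1.5e-07) at 6 h. The lesion call was lost with 1 fit over all libraries (0.43, adjusted p = 0.0664). Between 6 and 36 h the change was 0.42 ± 0.17 (adjusted p = 0.0538), not called although the libraries of the 2 times do not overlap. It passed the threshold without replicate 1 or 2 at 12 h or replicate 2 at 36 h (adjusted p from 0.0178 to 0.0333). It also passed with the same total in each library (0.61, adjusted p = 0.00466), TMM (0.43, adjusted p = 0.0436), neuron scaling (1.03, adjusted p = 6.75e-05), edgeR (0.46, adjusted p = 0.0336), DESeq2 (0.41, adjusted p = 0.0479) and 1 fit over all libraries (0.42, adjusted p = 0.0296). The change from E17.5 to sham, 0.25 ± 0.12, was not called and passed without replicate 2 at E17.5 (adjusted p = 0.00126). Among the 7 synaptotagmins of the set Syt4 held 21.3% ± 1.07 of the summed level per kilobase after sham surgery, 43.6% ± 4.02 at 6 h and 62.6% ± 3.46 at 36 h, while Syt11 went from 59.7% ± 1.40 to 29.1% ± 2.89. Further synaptotagmins in the data, such as Syt6, are left out of this sum. Part of the Syt4 exons, 14.5% of their bases, overlaps the opposite-strand gene Gm26658, and the TruSeq V2 kit does not mark strand, so reads from these bases cannot be assigned.

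Of the fast sensors, Syt1 was highest at E17.5 and Syt2 after sham surgery. Syt1 rose by 3.11 ± 0.16 (adjusted p = 1.4e-06) between the embryonic ages and fell by 0.60 ± 0.09 (adjusted p = 4.0e-04) to sham, with means of 799 ± 164, 6814 ± 458 and 4492 ± 198. Syt2 rose in both comparisons, by 2.61 ± 0.18 (adjusted p = 5.3e-06) and 1.49 ± 0.13 (adjusted p = 1.2e-05). Syt1 per Syt2, by exon length, was 6.98 ± 1.58 at E17.5 and 1.61 ± 0.0731 after sham surgery, with no overlap. After lesion neither was called, with changes of -0.12 ± 0.08 and -0.20 ± 0.08, but Syt2 passed without lesion replicate 2 (adjusted p = 0.0397) and with TMM (-0.21, adjusted p = 0.043) and edgeR (-0.21, adjusted p = 0.0423). At 6 h Syt2 fell by 0.54 ± 0.13 (adjusted p = 0.00249), a call lost with neuron scaling (-0.02, adjusted p = 0.885) and 1 fit over all libraries (-0.54, adjusted p = 0.0874). Over the culture course both fell, by 1.47 ± 0.13 (adjusted p = 3.5e-07) and 1.42 ± 0.30 (adjusted p = 0.00102). Syt9 also fell in culture. It stood at 152, 224 and 266 at E12.5, 2630.2, 2324 and 2363 at E17.5, 2482, 2354 and 2451 after sham surgery, and 1632, 2315 and 1823 after lesion. In culture Syt9 ran 2773, 2366 and 2278 at 6 h, 1500.1, 1376 and 1648 at 12 h, 883, 837 and 896 at 24 h, and 858, 774 and 784 at 36 h. The E17.5 and sham libraries overlapped, and each culture time up to 24 h lay below the time before. Syt9 fell by 1.61 ± 0.11 (adjusted p = 3.0e-08) over the course, and by 0.35 ± 0.11 (adjusted p = 0.0195) after lesion, a call that was lost without sham replicate 1 or 3 or lesion replicate 1 or 3 (adjusted p from 0.0568 to 0.0708). The call was lost, too, with neuron scaling (-0.27, adjusted p = 0.0665), 1 fit over all libraries (-0.35, adjusted p = 0.107) and plain eBayes (-0.35, adjusted p = 0.0857). At 6 h against sham it was not called (0.02 ± 0.10) and passed with neuron scaling (0.53, adjusted p = 0.000371).

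Syt5, a synaptotagmin also found on dense-core vesicles, was called in the embryonic and lesion comparisons and in none of the others with sham, E17.5 or 6 h. Its counts were 64.8, 68.1 and 36.8 at E12.5, 627, 561 and 728 at E17.5, 652, 506 and 555 after sham surgery, and 379, 453 and 443 after lesion. Cultured neurons held 656, 657 and 511 at 6 h, 631, 717 and 684 at 12 h, 733, 683 and 624 at 24 h, and 687, 595 and 662 at 36 h of Syt5. Lesion lay below sham without overlap, and apart from E12.5 the other groups overlapped. Syt5 rose by 3.52 ± 0.25 (adjusted p = 5.8e-06) to E17.5 and fell by 0.42 ± 0.11 (adjusted p = 0.00601) after lesion, a call lost with 1 fit over all libraries (-0.42, adjusted p = 0.0961). Changes to sham (-0.16 ± 0.14), at 6 h (0.09 ± 0.13) and over the culture course (0.10 ± 0.13) were not called; they passed with the same total in each library (-0.38, adjusted p = 0.0416), with neuron scaling (0.60, adjusted p = 0.00108) and with neuron scaling (0.70, adjusted p = 0.000638). Syt7 fell by 1.47 ± 0.13 (adjusted p = 3.4e-07) and Syt11 by 0.50 ± 0.12 (adjusted p = 0.00334) over the culture course, and neither was called after lesion (-0.07 ± 0.10 and -0.07 ± 0.07). The culture fall of Syt11 was not kept with neuron scaling (0.10, adjusted p = 0.387), nor was its fall at 6 h, 0.38 ± 0.08 (adjusted p = 0.00128), with neuron scaling (0.13, adjusted p = 0.234).

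Complexins are small soluble proteins that clamp the SNARE complex until calcium arrives. Cplx1, the form of fast-firing neurons, showed the steepest embryonic rise of the 43 genes. It was at 274, 404 and 365 at E12.5, 8847, 7361 and 8937 at E17.5, 19169.5, 18559 and 19100.0 after sham surgery, and 17478, 17040.1 and 15571 after lesion. Cplx1 in culture was at 11104, 13171 and 10388 at 6 h, 6982, 11888 and 14102 at 12 h, 5524, 7552 and 6286 at 24 h, and 3900.2, 5410.1 and 5134 at 36 h. E12.5 was far below all other groups, sham the highest, and replicate 1 at 12 h lay below the other 12 h libraries. The changes were 4.60 ± 0.17 (adjusted p = 3.8e-07) to E17.5, 1.18 ± 0.10 (adjusted p = 8.9e-06) to sham, -0.72 ± 0.10 (adjusted p = 2.2e-05) at 6 h (lost with neuron scaling (-0.21, adjusted p = 0.0992)) and -1.27 ± 0.21 (adjusted p = 1.5e-04) over the culture course. The small lesion fall, 0.18 ± 0.07 (adjusted p = 0.0429), was lost without sham replicate 1, 2 or 3 or lesion replicate 3 (adjusted p from 0.0834 to 0.152). The same call was lost with neuron scaling (-0.10, adjusted p = 0.2), 1 fit over all libraries (-0.18, adjusted p = 0.559), plain eBayes (-0.18, adjusted p = 0.11) and the run of library numbers as a term (-0.18, adjusted p = 0.0518). Cplx2, the main complexin of forebrain, was the more abundant form at E12.5. Its values were 1955, 2337 and 1808 at E12.5, 4723, 3774 and 4874 at E17.5, 6623, 6433 and 6384 after sham surgery, and 3981, 5831 and 3988 after lesion. For Cplx2 cultures gave 5355, 6161 and 5130.4 at 6 h, 3468, 5418 and 6027 at 12 h, 2154, 2704 and 2552 at 24 h, and 1506, 1896 and 1846 at 36 h. Lesion replicate 2 stood near the sham libraries and the other 2 lesion libraries lower, yet all lesion libraries lay below sham. Cplx2 rose by 1.13 ± 0.15 (adjusted p = 2.1e-04) and 0.55 ± 0.11 (adjusted p = 0.00222), then fell by 0.52 ± 0.13 (adjusted p = 0.0102) after lesion and 1.67 ± 0.18 (adjusted p = 1.7e-06) in culture. Its embryonic call was lost with neuron scaling (0.17, adjusted p = 0.537). At 6 h it was not called (-0.23 ± 0.10), and passed without replicate 2 at 6 h (adjusted p = 0.00776) and with the same total in each library (-0.25, adjusted p = 0.0412) and neuron scaling (0.29, adjusted p = 0.0229). By exon length Cplx1 held 27.7% ± 3.63 of the pair at E12.5, 80.9% ± 0.483 at E17.5 and 86.8% ± 0.23 after sham surgery, and from then on between 82.4% ± 0.395 at 6 h and 89.1% ± 2.08 after lesion.

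Doc2b, a calcium-binding protein of spontaneous release, was low in adult ganglia and rose after lesion. It was at 40.1, 55.3 and 93.7 at E12.5, 192, 183 and 118 at E17.5, 23.6, 23.4 and 30.4 after sham surgery, and 101.4, 65.1 and 94.8 after lesion. Doc2b in culture was at 47.9, 39.0 and 42.3 at 6 h, 23.4, 49.7 and 85.4 at 12 h, 61.5, 73.8 and 99.6 at 24 h, and 73.3, 113 and 104 at 36 h. Sham libraries lay below every library of the E12.5, E17.5, lesion and 6 h groups, and replicate 1 at 12 h was as low as sham. The changes were 1.42 ± 0.33 (adjusted p = 0.00496) to E17.5, -2.60 ± 0.24 (adjusted p = 1.9e-05) to sham, 1.70 ± 0.21 (adjusted p = 3.9e-05) after lesion, 0.72 ± 0.25 (adjusted p = 0.0222) at 6 h and 1.13 ± 0.36 (adjusted p = 0.0172) over the culture course. The embryonic call was lost with neuron scaling (0.47, adjusted p = 0.204). That of 6 h was lost without sham replicate 1 or 2 or replicate 1 at 6 h (adjusted p from 0.0633 to 0.0863) and with 1 fit over all libraries (0.72, adjusted p = 0.0916), and that of the course without replicate 2 or 3 at 36 h (adjusted p from 0.0541 to 0.0616). The fewest reads behind a Doc2b value were 6 and behind a Doc2a value 16. Doc2a had its highest mean at E17.5 (252 ± 107) and its lowest after sham surgery (41.1 ± 8.15), and 39.4% of its exon bases overlap Ino80e on the opposite strand, so that its reads cannot be separated from those of Ino80e. Its embryonic change, 0.20 ± 0.32, was not called, passed as a rise without replicate 2 at E17.5 (adjusted p = 0.0189) and turned to a fall with neuron scaling (-0.76, adjusted p = 0.0173). Doc2a rose by 0.75 ± 0.22 (adjusted p = 0.00919) at 6 h, lost without sham replicate 2 (adjusted p = 0.0615), and its culture change, 0.22 ± 0.25, was not called and passed with neuron scaling (0.81, adjusted p = 0.0112).

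The active zone is the scaffold that holds vesicles at the release site. Erc2, its ELKS protein, had the highest level per kilobase among these genes. Its counts were 500.6, 608 and 451 at E12.5, 2826, 3016 and 2594 at E17.5, 1521, 1445 and 1510.0 after sham surgery, and 2222, 1959 and 2036 after lesion. Cultures held 1769, 1868 and 2069.8 at 6 h, 2244, 1873 and 2211 at 12 h, 1756, 1681 and 1827 at 24 h, and 1340.0, 1487 and 1424 at 36 h of Erc2. E17.5 was highest, and lesion lay above sham without overlap. Erc2 rose by 2.44 ± 0.14 (adjusted p = 2.2e-06), fell by 0.91 ± 0.10 (adjusted p = 4.1e-05) to sham, rose by 0.47 ± 0.07 (adjusted p = 1.7e-04) after lesion and by 0.35 ± 0.10 (adjusted p = 0.00805) at 6 h, and fell by 0.42 ± 0.11 (adjusted p = 0.00509) over the culture course. The last was lost with the same total in each library (-0.23, adjusted p = 0.0679) and neuron scaling (0.18, adjusted p = 0.184). Bassoon and piccolo are very large scaffold proteins. Bassoon (Bsn) was at 1645, 1793 and 1073 at E12.5, 2656, 1848 and 3073 at E17.5, 2446, 2129.5 and 2861 after sham surgery, and 3260.2, 3390.0 and 3804 after lesion. Bsn in culture was at 3315, 3839.7 and 2905 at 6 h, 2155, 3846 and 4890.2 at 12 h, 2708, 3269 and 2668 at 24 h, and 2539.8, 3267 and 3418 at 36 h. Values scattered within groups, and replicate 1 at 12 h was the lowest and replicate 3 the highest of all cultures. Bsn rose by 0.50 ± 0.10 (adjusted p = 0.00174) after lesion, lost with 1 fit over all libraries (0.50, adjusted p = 0.148), and by 0.44 ± 0.13 (adjusted p = 0.00792) at 6 h, lost without sham replicate 2 (adjusted p = 0.0532) and with 1 fit over all libraries (0.44, adjusted p = 0.121) and plain eBayes (0.44, adjusted p = 0.0527). Its embryonic rise, 0.75 ± 0.24 (adjusted p = 0.0226), was lost without replicate 3 at E12.5 or replicate 1 or 3 at E17.5 (adjusted p from 0.0621 to 0.0812) and with neuron scaling (-0.21, adjusted p = 0.443).

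Piccolo (Pclo) fell at every culture step. It read 854, 1046 and 805 at E12.5, 3279, 3241 and 2784 at E17.5, 2534, 2789 and 3156 after sham surgery, and 2544, 3056 and 2642 after lesion. In culture Pclo read 3142, 3515 and 3554 at 6 h, 2264, 2182 and 2756 at 12 h, 1404, 1674 and 1642 at 24 h, and 1145, 1036 and 1092 at 36 h. Sham, lesion and E17.5 libraries overlapped, and each culture time lay below the time before. Pclo rose by 1.79 ± 0.14 (adjusted p = 9.7e-06) to E17.5 and fell by 1.64 ± 0.12 (adjusted p = 3.9e-08) from 6 to 36 h, through steps of -0.51 ± 0.12, -0.61 ± 0.12 and -0.52 ± 0.12. The step from 24 to 36 h was lost without replicate 2 or 3 at 24 h or replicate 1, 2 or 3 at 36 h (adjusted p from 0.0587 to 0.161), and that from 6 to 12 h without replicate 3 at 6 h or replicate 2 at 12 h (adjusted p from 0.0546 to 0.0607). At 6 h against sham it changed by 0.27 ± 0.11 (adjusted p = 0.0384), lost without sham replicate 1 or 2 or replicate 2 or 3 at 6 h (adjusted p from 0.0567 to 0.208). Nor was it kept with no filter (0.27, adjusted p = 0.0518), the same total in each library (0.25, adjusted p = 0.0563), 1 fit over all libraries (0.27, adjusted p = 0.0633) and plain eBayes (0.27, adjusted p = 0.104). From E17.5 to sham it was not called (-0.14 ± 0.11) and passed with the same total in each library (-0.36, adjusted p = 0.0198).

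RIM proteins tether Rab3-bearing vesicles and calcium channels. Rims1 was a low-count gene, with as few as 13 reads behind a value. It stood at 16.5, 18.0 and 12.3 at E12.5, 199.8, 166 and 194 at E17.5, 89.5, 79.0 and 92.3 after sham surgery, and 66.6, 53.4 and 80.9 after lesion. Rims1 cultures were at 88.6, 118 and 127 at 6 h, 50.7, 100.9 and 68.3 at 12 h, 49.2, 48.8 and 55.1 at 24 h, and 39.9, 27.9 and 48.0 at 36 h. E17.5 lay above all other groups and E12.5 below. Rims1 rose by 3.51 ± 0.24 (adjusted p = 4.5e-06), fell by 1.09 ± 0.16 (adjusted p = 2.8e-04) to sham and by 1.52 ± 0.28 (adjusted p = 3.7e-04) over the culture course, and was not called after lesion (-0.39 ± 0.17), where it passed without lesion replicate 3 (adjusted p = 0.0314). At 6 h it was not called (0.34 ± 0.19), and passed without replicate 1 at 6 h (adjusted p = 0.0336) and with neuron scaling (0.85, adjusted p = 0.000646). Rims2 was the more abundant form throughout. It was at 563, 602 and 363 at E12.5, 1185, 1220.4 and 895 at E17.5, 955, 878 and 957 after sham surgery, and 618, 706 and 546 after lesion. Rims2 in culture was at 654, 668 and 769 at 6 h, 557, 446 and 464 at 12 h, 428, 399 and 477 at 24 h, and 395, 377 and 401 at 36 h. Lesion lay below sham without overlap. Rims2 rose by 1.13 ± 0.21 (adjusted p = 0.00166), then fell by 0.58 ± 0.09 (adjusted p = 2.9e-04) after lesion, by 0.42 ± 0.11 (adjusted p = 0.00408) at 6 h and by 0.83 ± 0.13 (adjusted p = 8.3e-05) in culture. The embryonic, 6 h and culture calls were lost with neuron scaling (0.17, adjusted p = 0.568), with neuron scaling (0.10, adjusted p = 0.469) and with neuron scaling (-0.23, adjusted p = 0.166). From E17.5 to sham it was not called (-0.23 ± 0.13), and passed without replicate 3 at E17.5 (adjusted p = 0.0136) and with the same total in each library (-0.45, adjusted p = 0.0134). By exon length Rims2 held between 80.4% ± 3.69 of the pair at E17.5 and 95.8% ± 0.319 at E12.5.

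Munc13 proteins prime vesicles for fusion, Unc13a being the main neuronal form. Unc13b stood at 701, 767 and 439.8 at E12.5, 882, 935 and 717 at E17.5, 243, 305 and 290.2 after sham surgery, and 277, 322 and 288 after lesion. Unc13b cultures were at 284, 295 and 268 at 6 h, 327, 342 and 311 at 12 h, 386, 339 and 289 at 24 h, and 391, 378 and 319 at 36 h. Both embryonic groups lay above every adult library. Unc13b fell by 1.59 ± 0.14 (adjusted p = 1.5e-05) to sham and changed by 0.36 ± 0.14 (adjusted p = 0.0486) over the culture course, which was lost without replicate 1, 2 or 3 at 6 h, replicate 2 or 3 at 12 h, replicate 2 at 24 h or replicate 1 or 2 at 36 h (adjusted p from 0.0548 to 0.146). It was also lost with no filter (0.36, adjusted p = 0.0575), TMM (0.36, adjusted p = 0.0502), DESeq2 (0.33, adjusted p = 0.0571) and 1 fit over all libraries (0.36, adjusted p = 0.0702). Not called were its embryonic change (0.44 ± 0.22), which passed with 1 fit over all libraries (0.44, adjusted p = 0.0222), and that at 6 h (0.02 ± 0.13), which passed with neuron scaling (0.53, adjusted p = 0.0036). Unc13a rose by 1.87 ± 0.20 (adjusted p = 6.1e-05) and fell by 1.12 ± 0.16 (adjusted p = 3.0e-05), and was not called after lesion (0.18 ± 0.09), where it passed without sham replicate 3 (adjusted p = 0.0214) and with neuron scaling (0.26, adjusted p = 0.0392). From E17.5 to sham Unc13a was not called (-0.32 ± 0.16) and passed without replicate 2 at E17.5 (adjusted p = 0.0173) and with the same total in each library (-0.54, adjusted p = 0.0191) and neuron scaling (-0.45, adjusted p = 0.0208). The change at 6 h was not called either (0.27 ± 0.12) and passed without sham replicate 3 or replicate 3 at 6 h (adjusted p from 0.0241 to 0.026) and with neuron scaling (0.79, adjusted p = 1.83e-05), edgeR (0.28, adjusted p = 0.0388) and DESeq2 (0.32, adjusted p = 0.0203). Its share of the pair by exon length was 53.5% ± 3.89 at E12.5, 75.2% ± 6.35 at E17.5, 88.2% ± 1.14 after sham surgery and 89.9% ± 0.275 at 6 h, and 75.9% ± 5.36 at 36 h.

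The promoter of Unc13a is shown because it was the only member window with both ends of RE1, the element bound by the repressor REST, which keeps neuronal genes off outside neurons. The left end was searched as TCAGCACC and the right end as GGACAGCG, on both strands of a window from 250 bases before to 50 after each RefSeq start, in which 34 of the 43 genes were matched. The left end stood in 3 of 34 members (Scg2, Syn1 and Unc13a) and in 1.85% of all 27025 genes with such a window, the right end in 1 and in 1.48%. In Unc13a both lie on the strand opposite to the gene, at 7 and 23 bases after the start, and are in capitals. The ends were searched separately with no set distance between them, and a whole RE1 was not searched for.
Unc13a promoter, chr8:71671708-71672007, minus strand, GRCm38.p6: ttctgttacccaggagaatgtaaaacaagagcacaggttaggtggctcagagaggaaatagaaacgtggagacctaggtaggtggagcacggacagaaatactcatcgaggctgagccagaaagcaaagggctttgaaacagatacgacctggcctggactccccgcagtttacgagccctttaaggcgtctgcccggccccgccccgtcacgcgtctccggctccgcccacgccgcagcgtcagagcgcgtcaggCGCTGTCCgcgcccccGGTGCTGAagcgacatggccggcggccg
These matches are a description of the letters in the window. The GC box, GGGCGG, stood in 27 of the 34 (79.4%), against 38.2% of all genes and 54.8% of the 15138 genes of the table that have a window. The TATA box, TATAAA, stood in 3, against 12.1% of the genes of the table. Median GC content was 61.3% over the 43 windows of the 34 members and 52.7% over all 32851 windows. An AP-1 site, TGANTCA, stood in 3 members (Erc2, Rph3a and Syt2) and in 7.85% of the genes of the table, and an NRF1 site, GCGCATGC, in 2 (Bsn and Syn1) and in 4.39%.

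Rab3 GTPases mark vesicles and are bound by RIM and rabphilin. Rab3a, the brain form, had the highest level per kilobase in its class. Its counts were 553, 620.0 and 411 at E12.5, 2248, 1418 and 2747 at E17.5, 4129, 3794 and 3685 after sham surgery, and 2608, 2846 and 2325 after lesion. Cultures held 1709.9, 2199 and 1710.1 at 6 h, 1305, 2230.4 and 2097 at 12 h, 787, 1111 and 903 at 24 h, and 537, 861 and 749 at 36 h of Rab3a. Sham was highest, and lesion, 6 h and E17.5 lay below it. Rab3a rose by 1.98 ± 0.25 (adjusted p = 1.6e-04) and 0.91 ± 0.21 (adjusted p = 0.00421), fell by 0.58 ± 0.08 (adjusted p = 1.0e-04) after lesion (lost with 1 fit over all libraries (-0.58, adjusted p = 0.074)), by 1.05 ± 0.11 (adjusted p = 1.7e-06) at 6 h and by 1.40 ± 0.21 (adjusted p = 5.6e-05) in culture. Rab3b was the scarcest form. It stood at 80.1, 109 and 74.3 at E12.5, 427, 342 and 412 at E17.5, 218, 186 and 184 after sham surgery, and 104, 132 and 102 after lesion. Rab3b cultures were at 132, 126 and 95.2 at 6 h, 121, 115 and 119.5 at 12 h, 93.5, 81.7 and 77.0 at 24 h, and 125, 105.4 and 103 at 36 h. E17.5 lay above all other libraries, and lesion below sham. Rab3b rose by 2.16 ± 0.19 (adjusted p = 2.0e-05), then fell by 1.00 ± 0.14 (adjusted p = 2.5e-04) to sham, by 0.80 ± 0.13 (adjusted p = 4.2e-04) after lesion and by 0.74 ± 0.17 (adjusted p = 0.00149) at 6 h (lost with neuron scaling (-0.23, adjusted p = 0.272)). Its change in culture, -0.07 ± 0.19, was not called and turned to a rise with neuron scaling (0.53, adjusted p = 0.0385).

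Rab3c showed the steepest fall in culture. It read 2879, 3121 and 2021 at E12.5, 9328, 11685 and 9589 at E17.5, 10751, 11245 and 11514 after sham surgery, and 11356, 10963 and 9829 after lesion. In culture Rab3c read 10608, 10294 and 12257 at 6 h, 7216, 6463 and 8532 at 12 h, 3583, 3794 and 4964 at 24 h, and 2468, 2608 and 2899 at 36 h. E17.5, sham, lesion and 6 h overlapped, and every later time lay below. Rab3c rose by 1.95 ± 0.18 (adjusted p = 2.8e-05) and fell by 2.05 ± 0.14 (adjusted p = 1.9e-08), with all 3 steps called, of which the last was lost without replicate 2 or 3 at 24 h or replicate 1, 2 or 3 at 36 h (adjusted p from 0.0519 to 0.183) and the first without replicate 3 at 6 h or replicate 2 at 12 h (adjusted p from 0.0703 to 0.0756). After lesion it was not called (-0.06 ± 0.07), nor at 6 h (-0.02 ± 0.10), where it turned to a rise with neuron scaling (0.50, adjusted p = 0.000191). From E17.5 to sham it was not called (0.14 ± 0.10) and passed without replicate 2 at E17.5 (adjusted p = 0.0085). Rab3d, known from secretory cells, had 374, 451 and 391 at E12.5, 3228, 2751 and 3332 at E17.5, 3134, 3093 and 2938 after sham surgery, and 2661, 2724 and 2686 after lesion. Rab3d in culture was at 2672, 2499 and 2003 at 6 h, 1200.0, 1649 and 1851 at 12 h, 1193, 1229 and 1238 at 24 h, and 1492, 1420.4 and 1433 at 36 h. Lesion lay below sham without overlap. Rab3d rose by 2.93 ± 0.13 (adjusted p = 8.0e-07) and fell by 0.71 ± 0.15 (adjusted p = 9.6e-04) in culture (lost with neuron scaling (-0.11, adjusted p = 0.524)). Its fall after lesion, 0.18 ± 0.06 (adjusted p = 0.0335), was lost without sham replicate 1 or 2 or lesion replicate 1 or 3 (adjusted p from 0.0674 to 0.114). The call was lost, too, with neuron scaling (-0.10, adjusted p = 0.219), 1 fit over all libraries (-0.18, adjusted p = 0.357) and plain eBayes (-0.18, adjusted p = 0.0846). Its fall at 6 h, 0.36 ± 0.11 (adjusted p = 0.0121), was lost without sham replicate 1 (adjusted p = 0.0552) and with neuron scaling (0.15, adjusted p = 0.295) and plain eBayes (-0.36, adjusted p = 0.057).

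Rabphilin (Rph3a) binds Rab3 on the vesicle. Its counts were 48.9, 64.9 and 68.5 at E12.5, 1052, 878 and 985 at E17.5, 4077, 4086 and 4526 after sham surgery, and 2657, 3951 and 2534 after lesion. Cultures held 4524, 5018 and 4207 at 6 h, 3059, 4050.1 and 4901 at 12 h, 1675, 2407 and 2337 at 24 h, and 1222, 1429.7 and 1663 at 36 h of Rph3a. E12.5 lay far below E17.5 and E17.5 below the adult groups, and all lesion libraries lay below sham. Rph3a rose by 3.99 ± 0.17 (adjusted p = 7.0e-07) and 2.12 ± 0.10 (adjusted p = 4.2e-07) and fell by 1.68 ± 0.18 (adjusted p = 1.8e-06) in culture. Its fall after lesion, 0.50 ± 0.15 (adjusted p = 0.027), was lost without sham replicate 1, 2 or 3 or lesion replicate 1 or 3 (adjusted p from 0.0558 to 0.0966). The same call was lost with neuron scaling (-0.42, adjusted p = 0.0524), DESeq2 (-0.47, adjusted p = 0.0757), 1 fit over all libraries (-0.50, adjusted p = 0.0578) and plain eBayes (-0.50, adjusted p = 0.0678). At 6 h it was not called (0.11 ± 0.10) and passed with neuron scaling (0.63, adjusted p = 5.24e-05). Within the Rab3 family by exon length, Rab3a held 50.4% ± 1.57 after sham surgery and 42.6% ± 1.64 after lesion, and Rab3d 21.1% ± 0.356 after sham surgery and 37.8% ± 4.11 at 36 h.

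Vesicle membrane proteins and synapsins give the vesicle its identity and tie it into a cluster. Synaptophysin (Syp), an abundant membrane protein of small vesicles, had the highest level per kilobase here. Its counts were 850.3, 1064 and 714 at E12.5, 6072, 6402 and 6014 at E17.5, 8826, 9950.1 and 8372 after sham surgery, and 8221, 8109 and 7267 after lesion. Cultures held 8355, 8154 and 8445 at 6 h, 7138, 8186 and 9957 at 12 h, 6943, 7347 and 7848 at 24 h, and 6009.9, 5629 and 8088 at 36 h of Syp. E12.5 was the lowest group, and lesion lay below sham without overlap. Syp rose by 2.83 ± 0.15 (adjusted p = 1.6e-06) and 0.55 ± 0.09 (adjusted p = 8.1e-04), and was not called after lesion (-0.20 ± 0.08, adjusted p = 0.0569), although it passed without sham replicate 3 or lesion replicate 2 (adjusted p from 0.0343 to 0.0446) and with TMM (-0.21, adjusted p = 0.0379) and the run of library numbers as a term (-0.20, adjusted p = 0.041). Its change in culture, -0.36 ± 0.14 (adjusted p = 0.0484), was lost without replicate 1, 2 or 3 at 6 h, replicate 2 at 12 h, replicate 1, 2 or 3 at 24 h or replicate 1 or 2 at 36 h (adjusted p from 0.0526 to 0.203). Nor was it kept with no filter (-0.36, adjusted p = 0.0671), the same total in each library (-0.17, adjusted p = 0.292), neuron scaling (0.25, adjusted p = 0.0753), edgeR (-0.30, adjusted p = 0.0809) and plain eBayes (-0.36, adjusted p = 0.0916). At 6 h against sham it was not called (-0.12 ± 0.09) and turned to a rise with neuron scaling (0.40, adjusted p = 0.00231). Its exons share 16.8% of their bases with Gm14703 on the opposite strand.

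SV2 proteins are vesicle glycoproteins, among them the entry site of botulinum toxin A, and the 3 forms changed places. Sv2a was at 589, 740.1 and 473 at E12.5, 2064, 1548 and 2035 at E17.5, 1009, 985 and 994 after sham surgery, and 797, 870.0 and 727 after lesion. Sv2a in culture was at 648, 651 and 578 at 6 h, 327, 532 and 655 at 12 h, 256, 322 and 377 at 24 h, and 201, 341 and 305 at 36 h. E17.5 was highest, and the group means of adult neurons stepped down from sham to 36 h. Sv2a rose by 1.66 ± 0.19 (adjusted p = 8.9e-05), then fell by 0.91 ± 0.13 (adjusted p = 2.3e-04), by 0.32 ± 0.08 (adjusted p = 0.00545) after lesion (lost with 1 fit over all libraries (-0.32, adjusted p = 0.33)), by 0.67 ± 0.10 (adjusted p = 6.5e-05) at 6 h (lost with neuron scaling (-0.16, adjusted p = 0.247)) and by 1.18 ± 0.24 (adjusted p = 7.5e-04) in culture. Sv2b was at 169.6, 202 and 198 at E12.5, 2921, 3312 and 2911 at E17.5, 6797, 7427 and 6952 after sham surgery, and 3718, 4086 and 3575 after lesion. Sv2b in culture was at 3944, 4762 and 5691 at 6 h, 3398, 4164 and 5119.7 at 12 h, 2132, 2968 and 3249.7 at 24 h, and 1494, 1952 and 2016 at 36 h. Sham stood above every other library, and lesion between sham and E17.5 without overlap. Sv2b rose by 4.00 ± 0.13 (adjusted p = 2.4e-07) and 1.21 ± 0.09 (adjusted p = 5.8e-06) and fell by 0.90 ± 0.07 (adjusted p = 1.2e-06), by 0.57 ± 0.12 (adjusted p = 8.4e-04) at 6 h (lost with neuron scaling (-0.06, adjusted p = 0.677)) and by 1.39 ± 0.19 (adjusted p = 2.1e-05).

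Sv2c was called in the other direction after lesion and at 6 h. It was at 139, 227 and 143 at E12.5, 2089.8, 1982 and 1958 at E17.5, 3069, 3361 and 3969.7 after sham surgery, and 3913, 4292 and 4065 after lesion. Sv2c in culture was at 5283, 5991 and 5113 at 6 h, 4489, 5085 and 5966 at 12 h, 4240.1, 4463 and 4701 at 24 h, and 3557, 4007 and 4227 at 36 h. Culture libraries at 6 h lay above sham, and sham and lesion overlapped. Sv2c rose by 3.59 ± 0.19 (adjusted p = 1.6e-06), 0.78 ± 0.11 (adjusted p = 2.8e-04) and, at 6 h, 0.66 ± 0.11 (adjusted p = 1.3e-04). It fell by 0.48 ± 0.12 (adjusted p = 0.00438) in culture, which was not kept with neuron scaling (0.13, adjusted p = 0.325). Its change after lesion, 0.25 ± 0.09 (adjusted p = 0.0379), was lost without sham replicate 1 or 2 or lesion replicate 2 or 3 (adjusted p from 0.0725 to 0.191). It was also lost with TMM (0.23, adjusted p = 0.0513), 1 fit over all libraries (0.25, adjusted p = 0.264) and plain eBayes (0.25, adjusted p = 0.13). Shares of the SV2 level by exon length went from 76.1% ± 3.08 Sv2a at E12.5, through 59.6% ± 2.21 Sv2b after sham surgery, to 59.5% ± 2.56 Sv2c at 36 h. After lesion Sv2b held 43.2% ± 0.593 and Sv2c 40.3% ± 1.28, where sham had 25.2% ± 2.56 Sv2c.

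**Figure D5:**
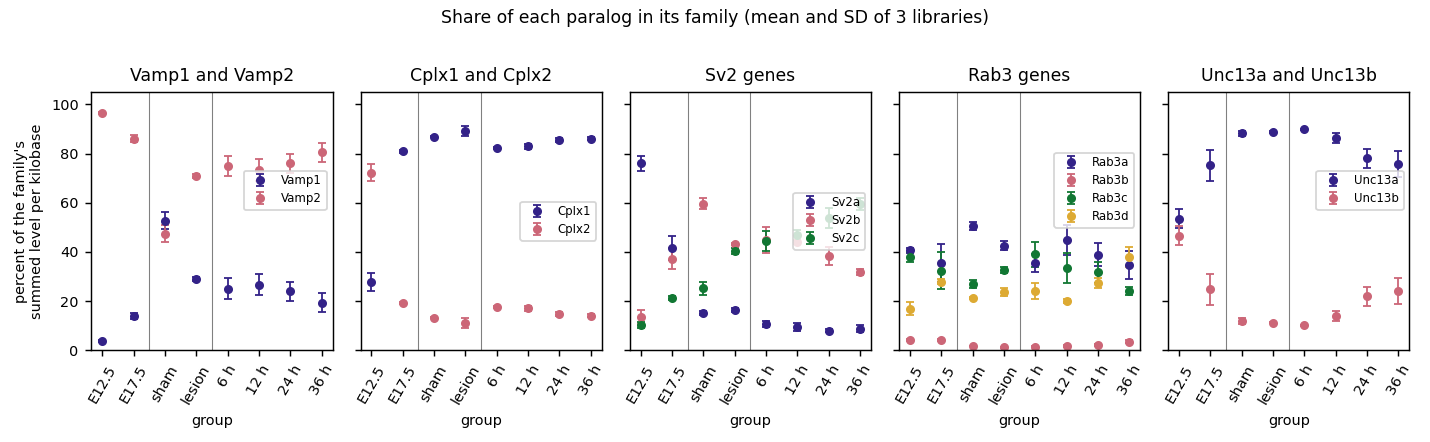
Share of each paralog in its family's summed level per kilobase of exon (points with SD of 3 libraries) in the 8 groups, for the Vamp, Cplx, Sv2, Rab3 and Unc13 families. Vamp1 rises to 52.7% ± 3.45 after sham surgery and is at 29.0% ± 0.868 after lesion, and the leading SV2 form passes from Sv2a to Sv2b to Sv2c.

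Synapsins bind vesicles to each other and to actin. Syn1 stood at 295, 385 and 315 at E12.5, 2683, 2314 and 2923 at E17.5, 3318, 2891 and 3817 after sham surgery, and 4787, 5127 and 4339 after lesion. Syn1 cultures were at 4168, 4207 and 4069 at 6 h, 3359, 4264 and 4383 at 12 h, 2939, 3153 and 2967 at 24 h, and 2233, 2807 and 2889 at 36 h. All lesion libraries lay above sham, and all 36 h libraries below 6 h. Syn1 rose by 2.99 ± 0.15 (adjusted p = 1.1e-06) to E17.5 and by 0.51 ± 0.10 (adjusted p = 0.00117) after lesion, and fell by 0.66 ± 0.13 (adjusted p = 5.0e-04) in culture (lost with neuron scaling (-0.06, adjusted p = 0.701)). Its change to sham, 0.34 ± 0.13 (adjusted p = 0.0475), was lost without replicate 1 or 2 at E17.5 or sham replicate 1 or 3 (adjusted p from 0.0837 to 0.192). The call was lost, too, with no filter (0.34, adjusted p = 0.0612), the same total in each library (0.12, adjusted p = 0.462), neuron scaling (0.21, adjusted p = 0.208) and plain eBayes (0.34, adjusted p = 0.1). That at 6 h, 0.32 ± 0.11 (adjusted p = 0.0189), was lost without sham replicate 1 or 2 (adjusted p from 0.0635 to 0.154) and with plain eBayes (0.32, adjusted p = 0.0721). Syn2 was at 189, 270.5 and 226 at E12.5, 2151, 2085 and 2187 at E17.5, 2156, 2021 and 2145 after sham surgery, and 1937, 2276 and 1710.3 after lesion. Syn2 in culture was at 2758, 2735 and 2779 at 6 h, 1749, 2214 and 2413 at 12 h, 1225, 1319 and 1390.0 at 24 h, and 845, 724 and 982 at 36 h. E17.5, sham and lesion overlapped. Syn2 rose by 3.24 ± 0.15 (adjusted p = 8.8e-07) and, at 6 h, by 0.39 ± 0.09 (adjusted p = 0.00223), and fell by 1.71 ± 0.14 (adjusted p = 1.0e-07) in culture. After lesion it was not called (-0.10 ± 0.09), but passed without lesion replicate 2 (adjusted p = 0.0422), nor from E17.5 to sham (-0.02 ± 0.09), where it passed with the same total in each library (-0.24, adjusted p = 0.0355). Syn1 per Syn2 by exon length was 3.37 ± 0.381 after sham surgery and 5.16 ± 0.318 after lesion, without overlap, and went from 3.21 ± 0.0798 at 6 h to 6.72 ± 1.37 at 36 h.

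Dynamin and the amphiphysins retrieve vesicle membrane after fusion. Dnm1, a neuronal dynamin, had the highest level per kilobase of the 3 endocytosis genes in the set. Its counts were 413, 482 and 724 at E12.5, 1614, 1192 and 1681 at E17.5, 2943, 2480.4 and 3216 after sham surgery, and 2750.1, 3044 and 2905 after lesion. Cultures held 3275, 4209 and 3001 at 6 h, 2587, 4371 and 4316 at 12 h, 2418, 3236 and 2762 at 24 h, and 2274, 2717 and 3283 at 36 h of Dnm1. Sham and lesion overlapped. Dnm1 rose by 1.49 ± 0.22 (adjusted p = 4.3e-04) (lost with neuron scaling (0.53, adjusted p = 0.0562)) and 0.95 ± 0.15 (adjusted p = 5.3e-04) and was not called after lesion (0.02 ± 0.09) or in culture (-0.34 ± 0.20). At 6 h, 0.27 ± 0.13, it was not called and passed without replicate 3 at 6 h (adjusted p = 0.0199) and with neuron scaling (0.79, adjusted p = 6.13e-05) and DESeq2 (0.33, adjusted p = 0.031). The other dynamin genes, which are outside the set, were called between 6 and 36 h. Dnm2 rose by 1.43 ± 0.24 (adjusted p = 1.4e-04) and Dnm3 fell by 1.83 ± 0.15 (adjusted p = 1.3e-07). Amph, the synaptic amphiphysin, read 201, 260.2 and 170.1 at E12.5, 1260.5, 1072 and 1172 at E17.5, 2036, 2287 and 2178 after sham surgery, and 1739, 1703 and 1569.8 after lesion. In culture Amph read 1504, 1697 and 1594 at 6 h, 1099, 1412 and 1623 at 12 h, 853, 1040.1 and 969 at 24 h, and 578, 724 and 669 at 36 h. Lesion lay below sham and 36 h below 6 h, without overlap. Amph rose by 2.49 ± 0.17 (adjusted p = 5.6e-06) and 0.89 ± 0.10 (adjusted p = 7.1e-05), fell by 0.37 ± 0.07 (adjusted p = 0.00115) after lesion (lost with 1 fit over all libraries (-0.37, adjusted p = 0.0702)), by 0.44 ± 0.10 (adjusted p = 0.00155) at 6 h (not kept with neuron scaling (0.08, adjusted p = 0.558)) and by 1.29 ± 0.15 (adjusted p = 3.5e-06) in culture.

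Bin1, an amphiphysin made in many cell types, differed. It stood at 376, 391 and 501.0 at E12.5, 409.7, 448 and 661 at E17.5, 795, 768 and 782 after sham surgery, and 946, 813 and 918 after lesion. Bin1 cultures were at 553, 552 and 578 at 6 h, 651, 773 and 699 at 12 h, 723, 753 and 680.4 at 24 h, and 761, 963 and 894 at 36 h. Embryonic groups overlapped, 36 h lay above 6 h, and lesion above sham. Bin1 rose by 0.66 ± 0.17 (adjusted p = 0.00813) to sham, fell by 0.48 ± 0.10 (adjusted p = 0.00107) at 6 h (not kept with neuron scaling (0.04, adjusted p = 0.79)) and rose by 0.63 ± 0.12 (adjusted p = 5.0e-04) in culture. Its embryonic change, 0.24 ± 0.20, was not called and turned to a fall with neuron scaling (-0.72, adjusted p = 0.0141). After lesion it was not called (0.19 ± 0.08), but passed without lesion replicate 2 (adjusted p = 0.018) and with neuron scaling (0.27, adjusted p = 0.0148).

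Synucleins bind vesicle membranes, and gamma-synuclein (Sncg) is a known product of sensory neurons. Sncg had the highest level per kilobase of all 43 genes. Its counts were 1029.8, 1165 and 895 at E12.5, 6999, 4225 and 5554 at E17.5, 14363, 13047 and 9898 after sham surgery, and 7057, 6969 and 9063 after lesion. Cultures held 11549, 11275 and 9485 at 6 h, 7154, 8195 and 6814 at 12 h, 3930.2, 3909 and 3804 at 24 h, and 3133, 3531 and 3265 at 36 h of Sncg. Sham was highest, lesion lay below it without overlap, and 24 and 36 h lay below 6 h. Sncg rose by 2.42 ± 0.19 (adjusted p = 1.1e-05) and 1.17 ± 0.19 (adjusted p = 6.4e-04) and fell by 0.69 ± 0.15 (adjusted p = 0.00498) after lesion, a call lost without lesion replicate 2 (adjusted p = 0.0597), and by 1.70 ± 0.11 (adjusted p = 1.3e-08) in culture. At 6 h it was not called (-0.20 ± 0.13) and passed without sham replicate 3 (adjusted p = 0.0275). Beta-synuclein (Sncb) was a low-count gene, with as few as 14 reads behind a value. It stood at 7.69, 12.2 and 15.9 at E12.5, 166, 109 and 215 at E17.5, 498, 378 and 475 after sham surgery, and 618, 506 and 566 after lesion. Sncb cultures were at 188, 301 and 190.4 at 6 h, 152, 326 and 281 at 12 h, 130.4, 149 and 117 at 24 h, and 108, 200.03 and 187 at 36 h. E12.5 was the lowest group, and sham and lesion stood above the cultures. Sncb rose by 3.67 ± 0.35 (adjusted p = 3.1e-05) and 1.50 ± 0.23 (adjusted p = 4.6e-04) and fell by 1.01 ± 0.18 (adjusted p = 2.1e-04) at 6 h. Its rise after lesion, 0.33 ± 0.11 (adjusted p = 0.0302), was lost without sham replicate 2 or lesion replicate 1 or 3 (adjusted p from 0.0688 to 0.145) and with 1 fit over all libraries (0.33, adjusted p = 0.489) and plain eBayes (0.33, adjusted p = 0.1).

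Secretogranin II and the chromogranins fill dense-core granules together with neuropeptides, and all 3 genes rose to E17.5 and to sham and fell after lesion. Scg2 was at 171, 217 and 171 at E12.5, 3948, 4137 and 3419.8 at E17.5, 11239, 11024 and 10082 after sham surgery, and 5045, 6209 and 5612 after lesion. Scg2 in culture was at 13218, 10643 and 13131 at 6 h, 10723, 9269.7 and 12054 at 12 h, 8493, 8166 and 9901 at 24 h, and 6882, 6979 and 7531 at 36 h. Lesion lay below sham and above E17.5, and 6 h overlapped sham. Scg2 rose by 4.36 ± 0.14 (adjusted p = 2.5e-07) and 1.49 ± 0.10 (adjusted p = 2.6e-06) and fell by 0.94 ± 0.08 (adjusted p = 2.1e-06) after lesion and by 0.78 ± 0.13 (adjusted p = 1.1e-04) in culture (lost with neuron scaling (-0.18, adjusted p = 0.175)). At 6 h its change was 0.19 ± 0.10, not called, and passed without replicate 2 at 6 h (adjusted p = 0.0121) and with neuron scaling (0.70, adjusted p = 1.18e-05). Chga was at 355, 400.3 and 286 at E12.5, 1845, 1333 and 1986 at E17.5, 2377, 2328 and 2186 after sham surgery, and 1446, 1549.7 and 1410.2 after lesion. Chga in culture was at 1711, 2055 and 1802 at 6 h, 1251, 2298 and 2444 at 12 h, 1210.1, 1591 and 1254 at 24 h, and 1074, 1261 and 1401 at 36 h. All lesion libraries lay below sham. Chga rose by 2.30 ± 0.19 (adjusted p = 1.3e-05) and fell by 0.65 ± 0.07 (adjusted p = 1.2e-05) after lesion. Its change to sham, 0.44 ± 0.15 (adjusted p = 0.0274), was lost without sham replicate 1, 2 or 3 (adjusted p from 0.0553 to 0.0918). The same call was lost with the same total in each library (0.22, adjusted p = 0.243), neuron scaling (0.31, adjusted p = 0.0894), 1 fit over all libraries (0.44, adjusted p = 0.0548) and plain eBayes (0.44, adjusted p = 0.066). That at 6 h, -0.31 ± 0.10 (adjusted p = 0.0169), was lost without sham replicate 1 or 2 or replicate 1 at 6 h (adjusted p from 0.0659 to 0.0807) and with neuron scaling (0.20, adjusted p = 0.11), 1 fit over all libraries (-0.31, adjusted p = 0.181) and plain eBayes (-0.31, adjusted p = 0.0549). That in culture, -0.58 ± 0.21 (adjusted p = 0.0284), was lost without replicate 2 or 3 at 6 h or replicate 1 or 2 at 36 h (adjusted p from 0.057 to 0.104) and with the same total in each library (-0.39, adjusted p = 0.13), neuron scaling (0.02, adjusted p = 0.919) and plain eBayes (-0.58, adjusted p = 0.0677).

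Chgb was at 501.2, 526 and 391 at E12.5, 1487, 1509.6 and 1262 at E17.5, 2320.3, 2859.8 and 2412 after sham surgery, and 1999, 2099 and 1724 after lesion. Chgb in culture was at 2089.6, 2316 and 2306 at 6 h, 1605, 2087 and 2724 at 12 h, 1412, 1759 and 1795 at 24 h, and 1000.4, 1011 and 1471 at 36 h. Sham lay above lesion and E17.5 without overlap. Chgb rose by 1.59 ± 0.15 (adjusted p = 3.0e-05) and 0.83 ± 0.12 (adjusted p = 2.7e-04), and fell by 0.38 ± 0.09 (adjusted p = 0.00519) after lesion (lost with 1 fit over all libraries (-0.38, adjusted p = 0.127)) and by 0.97 ± 0.18 (adjusted p = 4.5e-04) in culture (lost with neuron scaling (-0.36, adjusted p = 0.051)). At 6 h it was not called (-0.17 ± 0.11) and turned to a rise with neuron scaling (0.34, adjusted p = 0.0128). By exon length Scg2 held 20.0% ± 1.86 of the 3 granule genes at E12.5, 70.9% ± 1.26 after sham surgery and 64.2% ± 2.42 after lesion.

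Promoters of Scg2, Chgb and Syn1 are shown because they were the member windows that hold the full cyclic AMP response element, TGACGTCA, the site of CREB-family factors. It stood in 3 of the 34 matched members, in 2.03% of all genes with a window and in 2.85% of the genes of the table. The element, and the left end of RE1 on either strand in Scg2 and Syn1, are in capitals, in sequences from RefSeq with the build GRCm38.p6. Relative to the start the element lies at -68 in Scg2, -72 in Chgb and -159 in Syn1.
Scg2 promoter, chr1:79439977-79440276, minus strand: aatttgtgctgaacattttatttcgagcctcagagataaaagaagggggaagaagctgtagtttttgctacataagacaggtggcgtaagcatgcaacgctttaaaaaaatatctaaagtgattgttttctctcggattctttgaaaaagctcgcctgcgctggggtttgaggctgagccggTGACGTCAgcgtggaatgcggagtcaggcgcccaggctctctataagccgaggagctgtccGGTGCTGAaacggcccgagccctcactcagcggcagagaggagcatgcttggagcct
Chgb promoter, chr2:132781392-132781691, plus strand: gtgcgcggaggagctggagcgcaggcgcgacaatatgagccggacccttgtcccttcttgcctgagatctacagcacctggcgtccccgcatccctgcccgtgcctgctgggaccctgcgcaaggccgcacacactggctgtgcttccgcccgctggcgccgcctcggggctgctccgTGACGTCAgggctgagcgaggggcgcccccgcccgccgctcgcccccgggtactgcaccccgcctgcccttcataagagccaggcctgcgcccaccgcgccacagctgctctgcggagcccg
Syn1 promoter, chrX:20920869-20921168, minus strand: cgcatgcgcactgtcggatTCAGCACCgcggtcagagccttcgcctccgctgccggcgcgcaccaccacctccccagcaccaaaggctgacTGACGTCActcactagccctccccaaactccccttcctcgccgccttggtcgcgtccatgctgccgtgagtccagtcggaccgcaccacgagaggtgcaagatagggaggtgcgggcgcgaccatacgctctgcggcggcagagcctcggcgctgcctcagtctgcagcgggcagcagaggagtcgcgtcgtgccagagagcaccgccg
All 3 genes rose between the embryonic ages and fell in culture, as did 93% and 74.4% of the 43 genes. Of all tested genes 31.1% rose between the embryonic ages and 25.3% fell in culture. With neuron scaling the culture falls of all 3 were lost. After lesion Scg2 and Chgb fell and Syn1 rose.

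Lesion and culture share no libraries. Of the 19 genes that fell after lesion, 17 also fell between 6 and 36 h, and the others, Syt5 and Rab3b, were not called in culture. These 17 are 89.5% of the 19, where 74.4% of all 43 genes fell in culture, and of the 2924 genes lower after lesion and tested in both comparisons 58% fell in culture. Of the 9 that rose after lesion, Vamp2, Erc2, Sv2c and Syn1 fell in culture, Stx1a and Doc2b rose, and Syt4, Bsn and Sncb were not called. Thus 44.4% of the 9 fell in culture and 22.2% rose. Of the 2957 genes higher after lesion and tested in both comparisons, 10.5% fell in culture and 50.4% rose. All 28 genes called after lesion had risen between the embryonic ages, as had 93% of the whole set. Among all genes tested in both, 51.5% of those lower and 27% of those higher after lesion had risen between the embryonic ages. The most common sequence of calls, in 8 genes (Amph, Chga, Cplx1, Nsf, Rab3a, Snap25, Sv2b and Vamp1), was a rise to E17.5, a rise to sham, and falls after lesion, at 6 h and over the culture course. The calls to sham, after lesion and at 6 h all use the same sham libraries. How many of all genes had this sequence was not counted. With neuron scaling the 6 h fall was not kept for Amph, Chga, Cplx1, Nsf, Snap25 and Sv2b. Nor were the culture falls of Chga and Nsf, the lesion fall of Cplx1 and the rise of Chga to sham.

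The rest of the pathway was covered by 94 further genes in the same classes, of which 93 were in the table. Between the embryonic ages 61 of 87 tested rose and 8 fell, with a median of 0.88. From E17.5 to sham 45 rose and 21 fell. After lesion 18 rose and 27 fell, with a median of 0.03. At 6 h 25 of 85 tested rose and 22 fell, and from 6 to 36 h 15 rose and 47 fell, with a median of -0.51. Of all tested genes, the shares called higher and lower were 31.1% and 31.9% between the embryonic ages and 28.9% and 31.1% to sham. They were 20.9% and 20.2% after lesion, 27.6% and 30.7% at 6 h, and 25.3% and 25.3% from 6 to 36 h. The rises after lesion and at 6 h were near these shares. Synpr, a relative of synaptophysin, rose by 5.10 ± 0.18 (adjusted p = 3.2e-07) between the embryonic ages and fell by 0.85 ± 0.14 (adjusted p = 0.00127) after lesion and 2.75 ± 0.21 (adjusted p = 5.0e-08) in culture. Rab27b, another vesicle GTPase, rose by 3.85 ± 0.18 (adjusted p = 9.9e-07), fell by 0.77 ± 0.15 (adjusted p = 0.0025) after lesion, rose by 0.81 ± 0.12 (adjusted p = 3.4e-05) at 6 h and fell by 4.15 ± 0.17 (adjusted p = 1.5e-10) in culture. Vgf, a granule protein and neuropeptide precursor, rose by 1.48 ± 0.23 (adjusted p = 0.00386) after lesion, 1.18 ± 0.17 (adjusted p = 7.6e-05) at 6 h and 1.46 ± 0.26 (adjusted p = 2.8e-04) in culture, opposite to Scg2, Chga and Chgb after lesion. Apba2, an adaptor that binds Munc18, rose by 1.26 ± 0.11 (adjusted p = 2.7e-06) after lesion.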

How the data were processed

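Per the labels' protocols, the 24 libraries were made from 10 ng of RNA with a TruSeq V2 kit. TopHat and the build mm10 are named in the submitters' processing notes. Not given in the sources used here are the annotation, the counting tool and how libraries were scaled. The authors deposited 1 table of normalized signal, 20782 genes by 24 libraries, in which values step as read counts divided by 1 factor per library: of the 339603 values above 0 and up to 1000 reads, 100% were whole reads within a tolerance of 0.1, and higher values were not checked. Depth was recovered from these steps.

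Here the deposited signal was tested on the log2(value + 1) scale with limma 3.58.1 in R 4.3.3 (trend and robust options, Benjamini-Hochberg adjustment over all tested genes, threshold 0.05), for genes at 10 or more in at least 3 libraries of the fit, with a separate fit for each comparison and 1 fit for the 4 culture times. The scripts were tested on simulated data. All 43 genes passed the filter. The reads recovered were also tested with edgeR 4.0.16 and DESeq2 1.42.0. After lesion edgeR called 6071 and DESeq2 5400 of 14556 genes, where limma called 5990. Between E12.5 and E17.5 the numbers were 9282, 9159 and 9160 of 14550, from E17.5 to sham 9107, 8736 and 8794 of 14652, from sham to 6 h 8755, 8157 and 8493 of 14566, and over the culture course 7820, 7869 and 7589 of 15006. Other alternatives were pseudocounts of 0.5 and 5, no filter, other scalings, a fit over all libraries, the run of library numbers (123 and 124 against the lower ones) as a term after lesion, and leaving out each library. Levels between genes are compared only per kilobase of exon (GENCODE M21), with every annotated exon base of a gene counted once. Which transcripts were expressed is not known, so the shares of paralogs depend on this length. Promoter windows are from RefSeq.

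Values in every library are given, in each role, for the gene with the highest level per kilobase, for the called gene with the largest change in each comparison among those with a group mean of at least 100, and for genes called in opposite directions after lesion and in the embryonic or culture comparison. Paralogs are compared by ratio. Alternatives for Stx1a, Napb, Syt1, Syt2, Syt7, Syt11, Doc2a and Unc13a were added after seeing the data. The genes and lists were chosen with earlier results of these data known.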

Additional observations from a re-analysis of the deposited data

How the results depend on the processing

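Leaving out each library in turn kept the numbers of genes called at 39-41 higher and 0 lower between the embryonic ages, 7-10 higher and 15-21 lower after lesion, 20-24 higher and 9-10 lower from E17.5 to sham, 7-13 higher and 15-18 lower at 6 h, and 2-5 higher and 30-32 lower over the culture course. For the culture steps the ranges were 0-2 higher and 3-8 lower, 0 higher and 10-27 lower, and 0 higher and 0-11 lower. Neuron scaling gave 2 lower between the embryonic ages, 24 higher and 3 lower at 6 h, 8 higher and 21 lower over the course, 6 higher and 1 lower from 6 to 12 h, 3 higher and 8 lower from 12 to 24 h, and 8 lower from 24 to 36 h. The same total in each library gave 14 lower from E17.5 to sham. A fit over all 24 libraries gave 5 higher and 10 lower after lesion and 8 lower from 24 to 36 h. From 6 to 12 h, 0 were higher with no filter, with TMM or with plain eBayes. From 24 to 36 h, 2 were lower with no filter, 9 with DESeq2 and 0 with plain eBayes. The cause was not tested.

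Among genes called with or without neuron scaling, the sign turned with it for Bsn (-0.21), Bin1 (-0.72) and Doc2a (-0.76) between the embryonic ages. At 6 h it turned for Snap25 (0.06), Napb (0.19), Nsf (0.22), Syt11 (0.13), Cplx2 (0.29), Rims2 (0.10), Rab3c (0.50), Rab3d (0.15), Syp (0.40), Amph (0.08), Bin1 (0.04), Chga (0.20) and Chgb (0.34). Over the culture course it turned for Nsf (0.05), Syt11 (0.10), Erc2 (0.18), Rab3b (0.53), Sv2c (0.13), Syp (0.25) and Chga (0.02). Signs of genes called under neither scaling also turned, and are not listed.

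No paired analysis was possible because the replicate numbers here only name libraries within a group and pair nothing across groups. The numbers in the titles of the operated ganglia fall into a lower and a higher run, each holding sham and lesion libraries, and this run was fitted as a term: after lesion it changed the calls of Cplx1 and Syp. Depth limits the shallow libraries: 1 read is worth 3.90 normalized counts in replicate 1 at 12 h and 0.439 in replicate 2 at 24 h.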
